A study of Mus musculus with 7 samples.

Results

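The genes described here are 10 members of the Notch pathway: the receptors Notch1, Notch2, Notch3 and Notch4, the ligands Dll1, Dll4, Jag1 and Jag2, and the direct targets Nrarp and Heyl. They were taken by gene symbol from a table of 56440 gene models. Each of the 10 symbols matched 1 row, with Notch1 and Jag2 sharing their row with a microRNA name, so no choice between rows had to be made. The set was selected on earlier results of these same libraries, the difference between a3a6KO and Ctrl in Notch genes included, so the group differences below describe the 10 genes and support nothing beyond that.

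The samples are basal cells of the mouse mammary gland, sorted from fresh tissue by flow cytometry on day 2 of lactation and measured by RNA sequencing. Basal cells are mostly myoepithelial cells, which contract around the milk-producing luminal cells and lie on the basement membrane. There were 4 control libraries (Ctrl, titled Blg negative) and 3 libraries labelled a3a6KO (titled Blg positive), a name that refers to the integrin subunits α3 and α6, described by the submitters as biological replicates. From what is known of the study, Blg is a Cre recombinase driven by the beta-lactoglobulin promoter, active in luminal cells, and the basal cells are neighbours of the cells meant to lose both integrins. Each a3a6KO library carries Blg while the controls lack it, so Cre and integrin loss cannot be told apart. The labels used here state no age, strain, litter or sorting gate. The targeted genes overlapped between the groups in these basal cells, with a log2 fold change, a3a6KO minus Ctrl, of 0.07 (SE 0.21) for Itga3 and -0.10 (SE 0.15) for Itga6, so they do not check the labels.

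Notch receptors are membrane proteins that are activated by ligands on an adjacent cell. Ligand pulling exposes the receptor to a metalloprotease and then to γ-secretase, and the freed intracellular domain enters the nucleus, where it joins RBPJ and Mastermind proteins to switch on genes of the Hes and Hey families and Nrarp. In the mammary gland Notch signalling is known for its part in luminal cell fate, and basal cells present ligands to their luminal neighbours. In blood vessels, Dll4, Jag1, Notch1 and Notch4 act in endothelial cells, and Notch3 and Heyl in pericytes and vascular smooth muscle.

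For the 3 members whose a3a6KO libraries all lay above the controls, the 250 bases before the RefSeq start site are shown, in the direction of transcription, because a promoter is where the Notch nuclear complex and its Hes and Hey products can bind. Capitals mark matches to CACGTG or CACGCG, the 2 sequences searched for Hes and Hey proteins.
Dll4, chr2:119325534-119325783, GRCm38.p6, plus strand: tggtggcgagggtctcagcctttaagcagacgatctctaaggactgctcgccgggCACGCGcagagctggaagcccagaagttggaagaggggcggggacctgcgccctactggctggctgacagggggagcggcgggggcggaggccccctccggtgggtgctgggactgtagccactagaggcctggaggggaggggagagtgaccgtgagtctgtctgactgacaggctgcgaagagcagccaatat
Nrarp, chr2:25180508-25180757, GRCm38.p6, plus strand: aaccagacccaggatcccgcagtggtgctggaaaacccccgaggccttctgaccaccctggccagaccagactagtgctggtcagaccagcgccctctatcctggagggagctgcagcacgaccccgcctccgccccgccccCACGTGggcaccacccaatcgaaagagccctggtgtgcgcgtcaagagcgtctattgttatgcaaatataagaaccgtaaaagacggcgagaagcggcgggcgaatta
Notch4, chr17:34564045-34564294, GRCm38.p6, plus strand: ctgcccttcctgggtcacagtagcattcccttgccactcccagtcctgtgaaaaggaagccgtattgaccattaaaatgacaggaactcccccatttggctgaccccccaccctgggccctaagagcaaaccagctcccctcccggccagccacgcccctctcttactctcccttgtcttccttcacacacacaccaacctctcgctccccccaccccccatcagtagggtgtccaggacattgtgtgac

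The RefSeq table held 10 windows of 300 bases (250 before to 50 after a start) for 9 members, with 2 for Dll1. The core of the RBPJ motif, TGGGAA on either strand, was in none of the 10 windows and in 25.6% of all 32851 windows of the table. CACGCG on either strand was in 5 of the 10, those of Notch2, Dll4, Jag1 and Jag2 and 1 of Dll1, and in 9.27% of all windows. CACGTG was in the Nrarp window and in 7.15% of all windows. The 250 bases before the start were 56% to 87.2% G and C in the 10 windows, each above the median of 52.4% over all windows. The part of base composition in these shares was not tested, so they show neither a surplus nor a lack of sites. A match or its absence describes these letters in this window only.

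The libraries held 9368418 to 21548279 recovered reads, with the 2 shallowest, 9368418 and 10861835, both in a3a6KO. All 15 basal markers were tested and present. They were led in read count by the smooth muscle actin gene Acta2, the oxytocin receptor gene Oxtr and the actin-binding protein gene Tagln. On the log2(value + 1) scale the 15 markers averaged 14.45 ± 0.07 in Ctrl (SD, n = 4) and 14.37 ± 0.05 in a3a6KO (SD, n = 3). Markers of other cells were present as well: of 20 endothelial markers none was at 0 in any library, and their mean level on the log2(value + 1) scale was 8.22 ± 0.31 over the controls (SD, n = 4) against 9.19 ± 0.33 over the a3a6KO libraries (SD, n = 3). The 13 pericyte markers averaged 7.06 ± 0.29 and 7.59 ± 0.19 in the same way, the 16 luminal markers 8.13 ± 0.81 and 8.11 ± 0.44, and the 13 fibroblast markers 7.50 ± 0.57 and 7.71 ± 0.13. Of the 14 immune markers, 8 were at 0 in at least 1 library, and the list averaged 3.71 ± 0.54 and 3.79 ± 0.44 in the same way. Its summed level varied widely between libraries, from 1035 to 3720 in Ctrl and from 1396 to 4049 in a3a6KO. In RNA from a mixture of cells, fewer cells of a type and less RNA per cell cannot be told apart.

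Dll1 stood far above every other member in these basal cells. Levels of different genes are compared here as the normalised read count per kilobase of exons (GENCODE M21), because longer transcripts collect more reads. On this scale Dll1, a Delta-like ligand, averaged 2793 ± 179 (SD, n = 4) in Ctrl, which placed it at the 98.5th percentile of 13039 genes. Jag1 followed at 279 ± 62.8 (SD, n = 4), a ratio of 9.99, and the ranges of the 2 genes did not overlap. Jag1 and Jag2, the Jagged or Serrate-type ligands, overlapped, with Jag2 at 266 ± 134 (SD, n = 4). Of the per-kilobase signal of the 4 ligands, Dll1 made up 82.4% ± 4.69 over the controls (SD, n = 4) against 81.4% ± 3.09 over the a3a6KO libraries (SD, n = 3). Dll4 made up 1.57% ± 0.75 and 4.98% ± 2.08 of it in the same order.

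Below Jag2 came a step to genes of middle or low level. Dll4 had 52.5 ± 22.1 per kilobase in Ctrl (SD, n = 4), with a ratio of Jag2 to Dll4 of 5.08 and no overlap of their ranges. Nrarp had 47.0 ± 7.89, Notch1 30.3 ± 11.8, Notch3 15.1 ± 4.90, Heyl 12.8 ± 4.13, Notch4 12.5 ± 5.16 and Notch2 7.23 ± 3.42 (each SD, n = 4). From Dll4 down, each gene overlapped the next in this order. The order in a3a6KO was the same except that Notch4, at 26.9 ± 1.99 per kilobase (SD, n = 3), came before Notch3 and Heyl. The deposited row of Notch4 is wider than the gene, as described below. Whether reads of neighbours raise its per-kilobase level and its share of the receptors was not tested. Of the signal of the 4 receptors, Notch4 made up 19.98% ± 7.36 over the controls (SD, n = 4) against 29.2% ± 10.6 over the a3a6KO libraries (SD, n = 3), a difference smaller than the SD of the a3a6KO libraries.

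**Figure D1:**
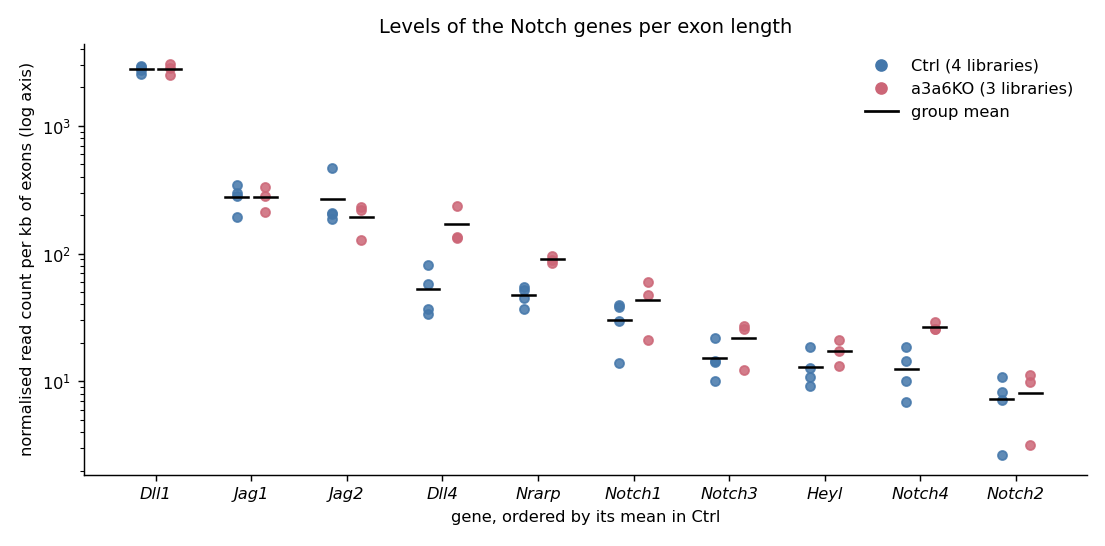
Normalised read count per kilobase of exons (log axis) of the 10 genes, ordered by their mean in Ctrl; points are libraries and black bars group means. Dll1 lies 9.99 times above Jag1 in Ctrl, and the points of neighbours from Dll4 downward overlap.

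All 10 members passed the filter on low values, a normalised read count of at least 10 in at least 3 libraries, which 16889 genes passed. No member passed an adjusted p of 0.05 in limma, where 0% of all genes did (0 of 16889, with 6.32% at an unadjusted p under 0.05). With edgeR's quasi-likelihood test, run on the recovered reads, 0% passed as well (6.07% unadjusted). DESeq2 on recovered reads called 0.456% of genes and 0.343% as higher, among them Dll4 and Nrarp. Every a3a6KO library lay above every Ctrl library for 3 members, Dll4, Nrarp and Notch4, and for 4% of all genes. No member lay below every control, as 3.51% of all genes did, and 7.51% of genes lacked overlap in either direction. Since the set was chosen with this contrast known, nothing is read from the members' count. Of the 10 log2 fold changes 8 were above 0, with a median of 0.46, against 49.5% and a median of 0.00 over all genes (-0.00395 before rounding). The median of the members was 0.23 without Ctrl replicate 3, 0.23 without a3a6KO replicate 3, 0.30 without a3a6KO replicate 2, 0.78 without a3a6KO replicate 1 and 0.14 with limma library weights.

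**Figure D2:**
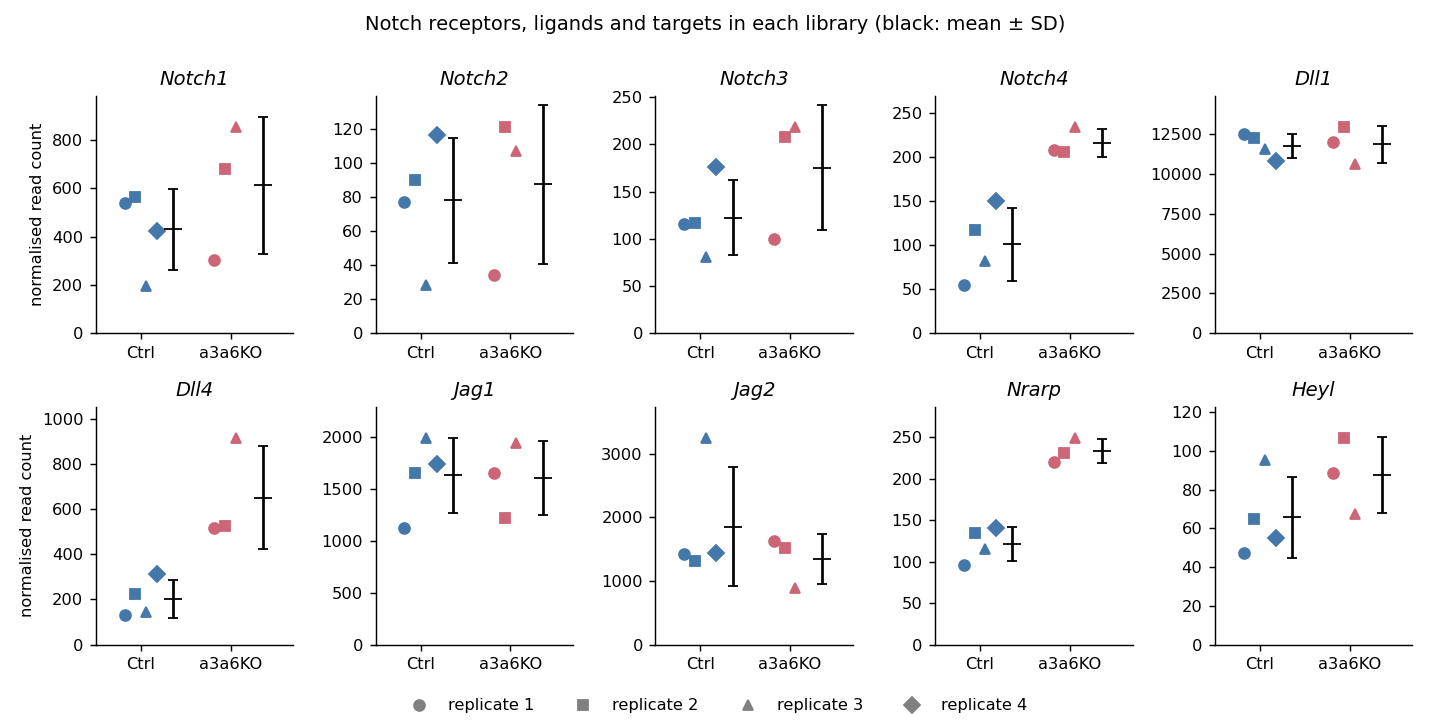
Normalised read count of each gene in every library on a linear axis from 0, by group and replicate, with the mean ± SD in black. Dll4, Notch4 and Nrarp show no overlap of Ctrl and a3a6KO, while Dll1 and Jag1 have nearly equal means.

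The ligand with the largest difference between the groups was Dll4, known for restraining endothelial sprouting. Its row (GSMG0021628) lies on chromosome 2 from 119325783 to 119335962 of mm10. In normalised read counts, given here and below in replicate order, the controls had 129.5, 223, 142 and 314, and the a3a6KO libraries 515, 523 and 916. All 3 a3a6KO libraries were above all controls, with a3a6KO replicate 3 far above the rest and Ctrl replicate 4 the highest control. The means were 202 ± 85.2 (SD, n = 4) and 651 ± 229 (SD, n = 3), and the log2 fold change on the log2(value + 1) scale was 1.72 (SE 0.34, 95% interval 0.96 to 2.48, limma adjusted p = 0.515). It ranked 17 of 16889 genes by p. In DESeq2 the log2 fold change was 1.68 with an adjusted p of 0.00234, and Dll4 was called without each of the 7 libraries in turn.

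For Dll1 (GSMG0017147, chromosome 17, 15367355 to 15375823), the most abundant member, the controls had 12488, 12272, 11559 and 10821, and the a3a6KO libraries 11986, 12977.5 and 10639.6. The groups overlapped, and the coefficient of variation was 6.41% in Ctrl, the smallest of the 10 members. The log2 fold change was 0.01 (SE 0.13), and its 95% interval of -0.30 to 0.31 bounds the difference on this scale; the sign turned with TMM scaling (-0.024) and quantile normalization (-0.050).

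For Jag1 (GSMG0023603, chromosome 2, 137081451 to 137116523), a ligand of both epithelium and vessels, the controls had 1123, 1657, 1991 and 1743, and the a3a6KO libraries 1649, 1224 and 1939. Its groups overlapped, with a log2 fold change of -0.02 (SE 0.22, 95% interval -0.52 to 0.49). For Jag2 (GSMG0009357, chromosome 12, 112907822 to 112929496) the controls had 1421, 1308, 3255 and 1439.6, and the a3a6KO libraries 1622, 1520.3 and 889.6. Ctrl replicate 3 had over 1.5 times the value of every other library, and a3a6KO replicate 3 was the lowest. The log2 fold change of Jag2 was -0.40 (SE 0.34), and -0.10 without Ctrl replicate 3 and -0.13 without a3a6KO replicate 3.

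Among the receptors, Notch4 differed most between the groups. For this receptor, known chiefly from endothelial cells, the controls had 55.2, 117, 81.7 and 150.5, and the a3a6KO libraries 209, 206 and 235. The groups did not overlap, and the a3a6KO libraries lay close together, with a coefficient of variation of 7.40% against 41.1% in Ctrl. The log2 fold change was 1.18 (SE 0.32, 95% interval 0.47 to 1.90, limma adjusted p = 0.551), and 1.09 in DESeq2 with an adjusted p of 0.109. Notch4 was called by DESeq2 only without Ctrl replicate 4 among the 7 runs that left out a library (adjusted p = 0.00542).

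The deposited row for Notch4 is wider than the gene. It spans 362 kb (GSMG0016544, chromosome 17, 34226226 to 34588543, mm10), whereas GENCODE places Notch4 within 24.2 kb, from 34564268 to 34588503. The span covers 10 other protein-coding genes of RefSeq, among them H2-Ab1, an MHC class II gene on the same strand with its own row. For H2-Ab1 the controls had 187, 208, 698 and 479.6, and the a3a6KO libraries 835, 224 and 692, so it was low in a3a6KO replicate 2, where Notch4 was not. Whether reads of neighbours entered the Notch4 row was not tested.

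The other 3 receptors, Notch1, Notch2 and Notch3, overlapped between the groups and varied widely within them. For Notch1 (GSMG0022566, chromosome 2, 26457182 to 26516663) the controls had 540.2, 565, 197 and 424, and the a3a6KO libraries 302, 680.4 and 856. For Notch2 (GSMG0024709, chromosome 3, 98013526 to 98150367) they had 77.3, 89.7, 28.5 and 116, against 34.0, 121 and 107. For Notch3 (GSMG0017366, chromosome 17, 32120893 to 32166852), the receptor of vascular mural cells, they had 115, 117, 80.8 and 176, against 99.4, 208 and 219. For each of the 3 receptors the lowest control was Ctrl replicate 3 and the lowest a3a6KO library was a3a6KO replicate 1.

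The log2 fold changes of these receptors were 0.49 (SE 0.44) for Notch1, 0.13 (SE 0.56) for Notch2 and 0.49 (SE 0.34) for Notch3, and each 95% interval included 0. The values moved with single libraries. Notch1 had 0.15 without Ctrl replicate 3 and 0.93 without a3a6KO replicate 1, and Notch3 0.31 and 0.85. Notch2 turned to -0.29 without Ctrl replicate 3 and reached 0.71 without a3a6KO replicate 1.

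The joint dip of the 3 receptors can be set beside transcript length, since their exons total 14.2, 10.8 and 8.09 kb. Relative to the mean of the 7 libraries, Notch1 was at -1.22 and Notch2 at -1.31 on the log2 scale in Ctrl replicate 3, and at -0.61 and -1.07 in a3a6KO replicate 1. The median of the 2297 tested genes with at least 8 kb of exons was at -0.06 and -0.02 in the same libraries. Notch4, with 8.06 kb of exons, was at -0.72 in Ctrl replicate 3 and at 0.63 in a3a6KO replicate 1. Ctrl replicate 3 also had the highest fibroblast marker mean, 8.34 against 7.09 to 7.84 in the other libraries, and the lowest endothelial marker mean, 7.98. In a3a6KO replicate 1 the fibroblast mean, 7.57, was instead the lowest of its group (7.71 and 7.84 in replicates 2 and 3). Its endothelial mean, 8.82, was the lowest of its group as well (9.31 and 9.44). The part of these marker levels in the dip was not tested.

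**Figure D3:**
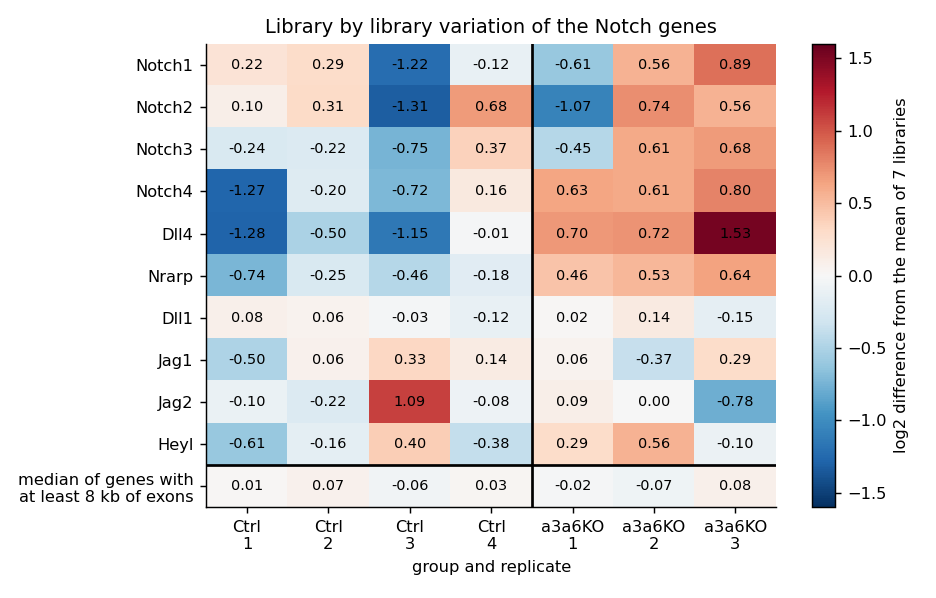
Difference of each gene in each library from its mean over the 7 libraries, on the log2(value + 1) scale (red higher, blue lower), above the median of the 2297 tested genes with at least 8 kb of exons. Notch1, Notch2 and Notch3 are low in Ctrl replicate 3 and a3a6KO replicate 1, Dll4, Notch4 and Nrarp are above 0 in each a3a6KO library, and Jag2 is highest in Ctrl replicate 3.

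Nrarp, an ankyrin-repeat protein that is induced by Notch and limits its signalling, was higher in a3a6KO libraries that lay close together (coefficient of variation 6.39%). For Nrarp (GSMG0020781, chromosome 2, 25180758 to 25183330) the controls had 95.4, 134, 116 and 141, and the a3a6KO libraries 219.6, 231 and 249, so the groups stood apart. The means were 121 ± 20.4 (SD, n = 4) and 233 ± 14.9 (SD, n = 3). The log2 fold change was 0.95 (SE 0.19, 95% interval 0.53 to 1.37, limma adjusted p = 0.515), and leaving out 1 library gave 0.84 to 1.02. DESeq2 called Nrarp with all libraries (adjusted p = 0.00625) and without Ctrl replicate 2 or Ctrl replicate 4 (adjusted p = 0.0499 and 0.00601). It did not without Ctrl replicate 1, Ctrl replicate 3 or any one of the 3 a3a6KO libraries, where the adjusted p was 0.0583 to 0.0860.

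Heyl, a transcriptional repressor of the Hey family, had from 38 to 107 recovered reads per library, and Notch2 from 31 to 154, the lowest read numbers among the members. Its row (GSMG0027034) lies on chromosome 4 from 123233556 to 123249870. The controls had 47.2, 64.6, 95.5 and 55.2, and the a3a6KO libraries 88.7, 107 and 67.6. Ctrl replicate 3 lay above 2 of the 3 a3a6KO libraries, so the groups overlapped, and the log2 fold change was 0.44 (SE 0.29, 95% interval -0.22 to 1.10).

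The 3 members without overlap were high in the libraries where the endothelial markers were high, and they were not the only members to follow these markers within the groups. The lowest controls for Dll4, Notch4 and Nrarp were Ctrl replicates 1 and 3, which had the lowest endothelial means (8.02 and 7.98), and the highest control was Ctrl replicate 4, at 8.66. The a3a6KO libraries had endothelial means of 8.82, 9.31 and 9.44, all above the controls, and a3a6KO replicate 3 was the highest library for all 3 genes. Of the 20 endothelial markers 19 had a log2 fold change above 0, with a median of 1.02. The summed endothelial level was 7238 to 11047 in Ctrl and 13270 to 19022 in a3a6KO. After removal of the group means, Pearson's r with the endothelial mean over the 7 libraries was 0.94 for Notch3, 0.85 for Dll4 and 0.84 for Notch2. It was 0.73 for Nrarp, 0.70 for Notch4, 0.61 for Notch1, 0.16 for Jag1, -0.33 for Heyl, -0.50 for Dll1 and -0.57 for Jag2. Such values are a description, since the genes of 1 library share its cell mixture and depth. Other marker lists also gave sizeable values. For Dll4, Nrarp and Notch4, r was 0.61, 0.63 and 0.58 with the immune mean and 0.60, 0.54 and 0.56 with the luminal mean. With the pericyte mean it was 0.47, 0.53 and 0.62. Heyl had -0.97 with the basal mean, and Jag1 and Dll1 had 0.89 and -0.88 with the immune mean.

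After subtraction of the endothelial mean within each library, Dll4, Notch4 and Nrarp gave unequal differences between the groups. The log2 level of Nrarp minus that mean was -1.30 ± 0.20 over the controls (SD, n = 4) against -1.32 ± 0.25 over the a3a6KO libraries (SD, n = 3), a difference of -0.02. For Notch4 it was -1.64 ± 0.39 and -1.43 ± 0.28, a difference of 0.22 that is within the SD of either group. For Dll4 it was -0.65 ± 0.30 and 0.11 ± 0.35, a difference of 0.75, with values of -0.99, -0.43, -0.81 and -0.36 in Ctrl and 0.19, -0.28 and 0.40 in a3a6KO. With the endothelial mean as a covariate in limma, the log2 fold changes were 0.30 for Dll4, 0.14 for Notch4 and 0.50 for Nrarp. Their unadjusted limma p-values were 0.52, 0.80 and 0.20. In that fit Nrarp stood above Dll4, the reverse of the order after subtraction, so the order depends on the method. With the pericyte mean as a covariate, Dll4, Notch4 and Nrarp had 1.19, 0.56 and 0.73. The group and the endothelial mean do not overlap in these libraries, so the 2 cannot be told apart in such a fit. Dll1 stayed between -0.15 and 0.14 of its own log2 mean in all 7 libraries over the same range of endothelial means.

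**Figure D4:**
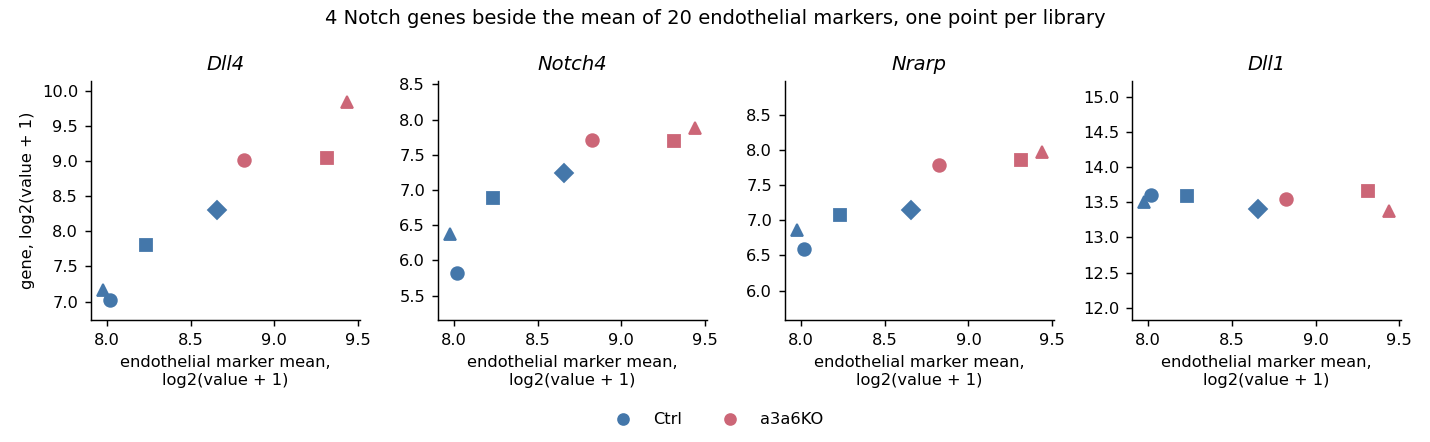
Level of Dll4, Notch4, Nrarp and Dll1 in each library against the mean of 20 endothelial markers, both as log2(value + 1); the y axes have the same height. For the first 3 genes the a3a6KO libraries lie above and to the right of the controls, and Dll1 stays within -0.15 to 0.14 of its mean.

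Within the groups, each member's nearest genes were ranked by Pearson's r of log2(value + 1) after removal of the group means, over 7 libraries and 10407 genes with a mean of at least 50. This is a description of likeness in a small set of libraries, where the nearest gene had r of at least 0.97 for every member. The gene nearest to Notch4 was Nrarp (r = 0.97). For Nrarp the second nearest was Pecam1, an adhesion molecule of endothelial cells (r = 0.98), and for Notch3 the third nearest, after Atg2b and Nomo1, which are on no marker list, was Cspg4, the pericyte marker NG2 (r = 0.98). With the mean of the 13 pericyte markers Notch3 had r = 0.59, below its r of 0.94 with the endothelial mean. For Dll4 the 3 nearest were Rusc2, Mgat4a and Mmp17, for Dll1 Tmub2, Zfp846 and Fbxw5, and for Jag1 Mrs2, Cab39l and Hcar2. Ribosomal protein genes were nearest to Notch2 (Rpl7a) and Nrarp (Rpl37a). None of the nearest genes of Dll4, Dll1, Jag1, Jag2 or Heyl was on a marker list.

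Over all roles, the other genes of the pathway had a median difference near 0, and the target genes among them 0.56. Of 56 listed genes, 49 were tested and none passed limma in either direction, where 0% of all genes did; 28 were above 0 and 21 below, and the median log2 fold change was 0.06, against 0.00 over all genes. DESeq2 called none of the 49, of which Hey2, Neurl3 and Dtx4 got no adjusted p. Every a3a6KO library lay above every Ctrl library for 5 of the 49, and for 4% of all genes. None of the 49 lay below every control, as 3.51% of all genes did. The counts above 0 and above every control include Hey2, whose direction the filter fixed. The pathway list and its roles were written with an earlier Notch result of these data known.

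The enzymes that make a receptor ready and cleave it had medians close to 0. Of 6 genes of glycosylation and maturation 4 were above 0, with a median of 0.08. Lfng and Mfng, the Fringe enzymes that tune which ligand a receptor prefers, had log2 fold changes of 0.50 (SE 0.19) and 0.81 (SE 0.30), and Poglut1, the O-glucosyltransferase and the one with the highest normalised read count of the 6, -0.05 (SE 0.13). For Lfng the controls had 187, 141, 137 and 125, and the a3a6KO libraries 186, 233 and 203, with overlap at Ctrl replicate 1. Furin, a protease that processes the receptor precursor and is named after its value was seen, had the lowest log2 fold change of the pathway list, -1.02 (SE 0.48, limma adjusted p = 0.785), and its groups overlapped. Of 9 genes of receptor cleavage 6 were above 0, with a median of 0.08. Ncstn, which encodes the γ-secretase subunit nicastrin, had 0.24 (SE 0.12) and no overlap of the groups, at 2327 to 2756 in Ctrl and 2800 to 3186 in a3a6KO. Aph1c, another γ-secretase subunit, had 0.72 (SE 0.22, limma adjusted p = 0.636), but it has a close copy in Aph1b (0.05, SE 0.18), so reads could be split between them.

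Ligand endocytosis, which a sending cell needs to activate Notch, was covered by 4 tested ubiquitin ligases. Neurl1b had 0.63 (SE 0.41) and Mib2 0.11 (SE 0.17), and the median was 0.25. Dlk2, a non-canonical ligand and the one tested gene of its role, had 0.20 (SE 0.20).

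In the nucleus, the DNA-binding partner of Notch is Rbpj, for which the controls had 189.8, 203, 171 and 191, and the a3a6KO libraries 194, 167 and 285. Its log2 fold change was 0.16 (SE 0.20). Maml2, a Mastermind coactivator with the highest read count of its role, had -0.18 (SE 0.17), and Hdac1, a histone deacetylase of repressor complexes, 0.48 (SE 0.26). Of the 10 nuclear genes 3 were above 0, with a median of -0.14. Of the 10 inhibitors and turnover genes 2 were above 0, with a median of -0.05. Dtx2, a Deltex ubiquitin ligase, had 0.43 (SE 0.16) with no overlap of the groups, and Dtx3, with the highest read count, -0.01 (SE 0.16). Dtx1, named after its value was seen, had a larger difference in the other direction, -0.76 (SE 0.29, limma adjusted p = 0.728), with overlap of the groups.

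Of the other target genes 9 were tested, and none passed limma or DESeq2. The median of the 9, Hey2 included, was 0.56, the highest of the roles. Hey2 passed the filter only through its a3a6KO libraries, which fixes its direction. The remaining 8 had log2 fold changes from 0.05 (Gata3) to 0.63 (Ccnd1), named after their values were seen. For Hes1, the classical Notch target, the controls had 312, 496, 945 and 648, and the a3a6KO libraries 1144, 585 and 824, so the groups overlapped (log2 fold change 0.56, SE 0.36). For Hey1 they had 120.5, 166, 110.2 and 178, against 168, 167 and 322, where a3a6KO replicate 3 stood above the rest (0.57, SE 0.28). Hey2 was at a low level in both groups, with 3.03 to 9.18 in Ctrl and 10.5 to 21.4 in a3a6KO (1.29, SE 0.51, limma adjusted p = 0.739). Hes5 was near 0, at 6.63 or less in every library, and was not tested. Cdkn1a, a cell cycle inhibitor with the highest read count of this role, had 0.33 (SE 0.50), with a3a6KO replicate 3 at 10316 against 1793 to 3864 elsewhere. Hey1 and Hey2 are also made by arterial endothelial cells. The endothelial list above does not single out arterial cells, and their part in these values was not tested.

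**Figure D5:**
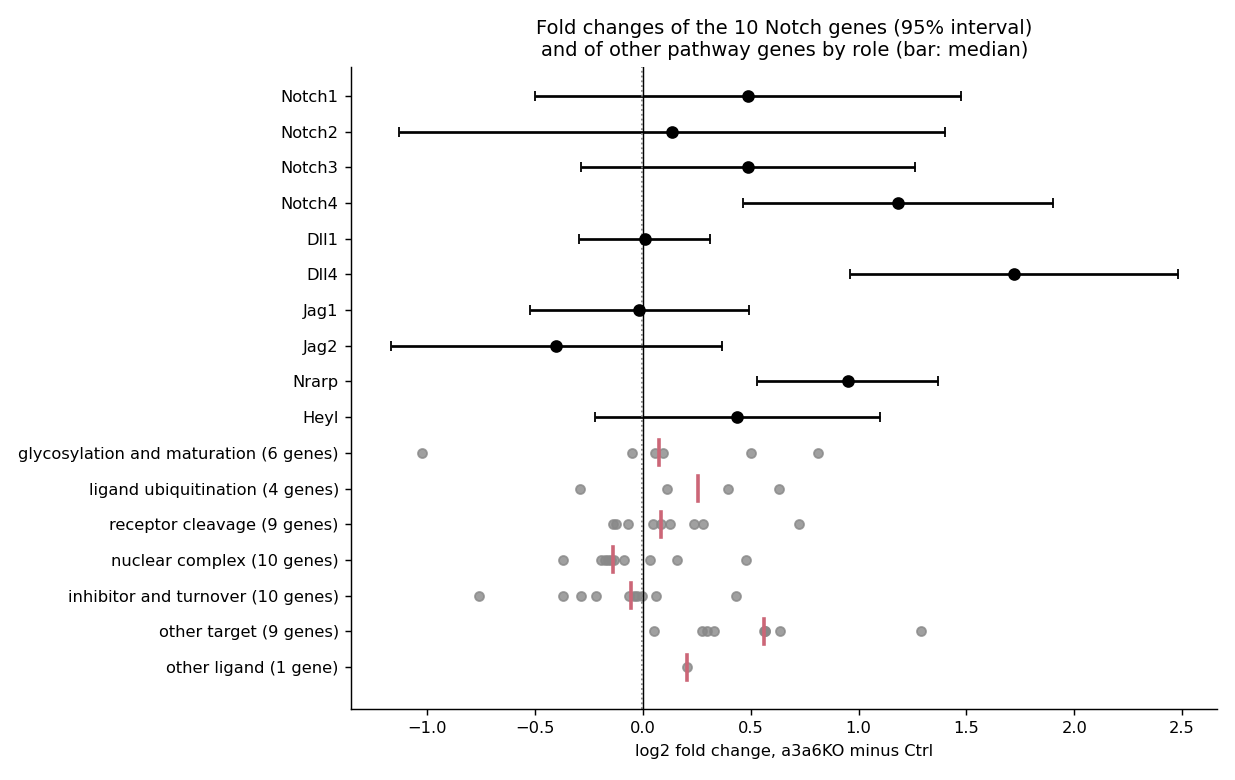
Log2 fold change, a3a6KO minus Ctrl, of the 10 genes with 95% intervals (black) and of 49 other pathway genes by role (grey points, red bar for the median); the dotted line is the median of all tested genes. The intervals of Dll4, Notch4 and Nrarp lie above 0 and those of the other 7 genes include 0; the highest of the other targets, at 1.29, is Hey2, which passed the filter only through a3a6KO.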

How the data were processed

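For each gene model and library, the deposited table gives 1 signal value, a read count that the authors scaled with a DESeq2 size factor, per the file's title and the submitters' processing notes. STAR 2.4.0, FastQC, Picard and SAMtools appear there too, without their roles, and coordinates are mm10, per the file headers. The counting tool, annotation and strand setting are not stated, so overlapping genes may share reads. The labels' protocols give SMARTer v4 library preparation. Values are not corrected for length, and 30655 models carry no symbol.

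Dividing by 1 step per library returned whole reads, within 0.01, for 100% of values above 0. Even numbers made up 61.8% to 63.8% of recovered counts from 1 to 20, more than the nearly equal shares of odd and even that single reads give, and the count tests took each as 1 read. Depth limits the precision most for Heyl and Notch2.

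Groups came from the genotype label and replicate numbers from deposition order, so they only name libraries; whether libraries share litters is not stated, and p-values measure the spread between these libraries. limma 3.58.1 (R 4.3.3; eBayes with trend) was fitted on log2(value + 1) for genes with at least 10 in at least 3 libraries, two-sided, with Benjamini-Hochberg adjustment over all genes and a threshold of 0.05. Such fold changes understate low genes. The alternatives were DESeq2 1.42.0 and the quasi-likelihood test of edgeR 4.0.16, both on recovered reads, other pseudocounts (0.5 and 5), filters, scalings, library weights, marker means as covariates and leaving out each library; DESeq2 without each library was added after the data were seen. The scripts were tested on simulated counts.

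The members, lists and rules were chosen with earlier results of these data known. Named were all members, in each pathway role the gene with the smallest p and the one with the highest mean, 6 fixed genes (Hes1, Hes5, Hey1, Hey2, Rbpj and Lfng), the 3 genes with the highest mean of each marker list and the 3 genes most like each member; further genes were named after their values were seen, and 1 gene under this rule is not reported here. The marker genes were Eng, Pecam1 and Cldn5 (endothelial), Mcam, Rgs5 and Anpep (pericyte), Krt8, Krt19 and Wfdc18 (luminal), Acta2, Oxtr and Tagln (basal), Dcn, Col3a1 and Col1a1 (fibroblast), and Cd74, H2-Ab1 and Lyz2 (immune). Promoters came from RefSeq (GRCm38.p6, the assembly of mm10), exon lengths from GENCODE M21. Python 3.11.15 and matplotlib 3.10.9 were used for the rest.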

Additional observations from a re-analysis of the deposited data

Results flagged for a closer look

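Among 46 genes examined in the 4 controls, 2 had a control library far from the other 3 by Dixon's criterion, which chance meets in about 1 of 20 groups. Jag2 had a normalised read count of 3255 in Ctrl replicate 3, against 1308 to 1439.6 in the other controls. Hdac1 had 932 in Ctrl replicate 2, against 580.2 to 615 in the other controls.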

How the results depend on the processing

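No paired analysis was possible because the labels give no replicate numbers. Dll4, Notch4, Nrarp and Heyl kept a log2 fold change above 0 under all 26 alternatives, from 0.30 to 1.97, 0.14 to 1.41, 0.50 to 1.02 and 0.26 to 0.83. No limma or edgeR alternative called a member. Dll1 turned to -0.024 with TMM scaling and -0.050 with quantile normalization, and Notch2 to -0.34 with library weights. With library weights the members' median was 0.14, with the endothelial mean as covariate 0.16 and with the pericyte mean 0.22. The endothelial covariate also gave -0.086 for the pathway median, -0.89 for Notch1, -2.23 for Notch2, -1.05 for Notch3 and 0.58 for Jag2. The pericyte covariate gave -0.79 for Notch2, -0.17 for Notch3 and 0.011 for Jag1. The cause was not tested in any of these.

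Leaving out 1 library in limma gave a members' median of 0.23 (without Ctrl replicate 3) to 0.78 (without a3a6KO replicate 1), and -0.29 to 0.71 for Notch2, -0.059 to 0.084 for Dll1 and -0.19 to 0.17 for Jag1, whose directions are not settled at this number of libraries. DESeq2 called 77 genes and 2 members, where limma and edgeR called 0 (1068 and 1025 at an unadjusted p under 0.05). Without Ctrl replicates 1 to 4 in turn it called 34, 32, 57 and 149 genes and 1, 2, 1 and 3 members, and without a3a6KO replicates 1 to 3 86, 64 and 59 genes and 1 member each. In those DESeq2 runs the direction turned for Notch2 without Ctrl replicate 3 (-0.13), a3a6KO replicate 2 (-0.17) and a3a6KO replicate 3 (-0.022), for Dll1 without Ctrl replicate 4 (-0.032), a3a6KO replicate 1 (-0.00020) and a3a6KO replicate 2 (-0.058), and for Jag1 without Ctrl replicate 3 (0.089), Ctrl replicate 4 (0.0073) and a3a6KO replicate 2 (0.14). The pathway median was -0.011 in DESeq2 without a3a6KO replicate 3. Reads per library limit Notch2 (31 to 154) and Heyl (38 to 107) most.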
